A study of Mus musculus with 3 samples.

Results

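The subunits of the glutamate receptors and the GABA-A receptors were examined in RNA of mouse dorsal cortex taken on postnatal day 4. The set holds 34 genes of the 35591 on the array: 4 AMPA, 7 NMDA and 5 kainate receptor subunits, the delta subunit Grid1, 7 metabotropic glutamate receptors and 10 GABA-A receptor subunits. They were found by gene symbol, which 52 of the 55681 non-control probes carried, 49 of them through a RefSeq accession and 3 through the authors' deposited table. The 35591 also count transcripts without a gene symbol, since 23943 probes were kept under a systematic name alone. Of the 34 genes, 32 had a probe bright enough to test. Grm6, a metabotropic receptor known from the retina, and Gabra6, a subunit known from cerebellar granule cells, were not well above background in either channel on any array.

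Glutamate is the main excitatory transmitter of the cortex and GABA the main inhibitory one. AMPA, NMDA and kainate receptors are cation channels built of 4 subunits, metabotropic receptors signal through G proteins, and GABA-A receptors are chloride channels built of 5 subunits. Which subunits a neuron makes sets the speed, the calcium permeability and the place of its receptors, and this makeup changes in the first weeks after birth.

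Each of 3 two-colour Agilent arrays held amplified RNA of 1 Brpf1-deficient pup in Cy5 and of 1 wild-type pup in Cy3. Brpf1 encodes a scaffold of histone acetyltransferase complexes. Both groups were untreated pups at postnatal day 4. The labels give neither the allele, nor a promoter or Cre line that drives the deletion, nor the sex, nor whether the 3 pairs came from different litters, so the p-values measure the spread between these 3 pairs. A value is the log2 ratio of Cy5 over Cy3 after loess normalisation within each array, and means are followed by their SD over the 3 arrays. A gene was called at an adjusted p under 0.05 in limma's moderated test across all 23306 genes tested.

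The labels and the data do not settle which genotype is which. Brpf1 itself was brighter in the channel labelled Brpf1-deficient, at 0.62, 0.73 and 0.96 on the 3 arrays (mean 0.77 ± 0.17, limma adjusted p = 0.00443). In the authors' deposited table Brpf1 has -0.80, and the 38 probes of receptor subunits listed there all have the sign opposite to the one found here. The labels do not say whether the Brpf1 probe lies in a deleted part of the gene, so it may check nothing. The results are therefore given as brighter in Cy5 (labelled Brpf1-deficient) or in Cy3 (labelled wild type). If the labels are exchanged on all 3 arrays, every sign below turns while sizes, counts and p-values stay. If they differ on 1 array alone, means, counts and p-values do not stay, and array 1 stands apart in a marker given below. Over all genes tested, the log2 ratios correlated at 0.57 between arrays 1 and 2, 0.70 between 1 and 3 and 0.59 between 2 and 3. An exchange on 1 array was not tested. Cy5 marked the same label on every array, so dye and genotype cannot be told apart. In this bulk tissue RNA, fewer cells of a type and less RNA per cell cannot be told apart either.

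Between 57.9% and 58.2% of spots were well above background in Cy5, and between 59.9% and 61.0% in Cy3, and the number of arrays limits the precision. Over all genes tested, 7.95% were called brighter in Cy5 and 9.19% in Cy3, and the counts of marker genes below stand beside these shares. Markers of cortical excitatory neurons were measured for 8 of 8 genes, of which 3 were brighter in Cy5 and 1 in Cy3. The list medians were 0.25, 0.20 and 0.09 on the 3 arrays. Of the 8 genes, Emx1, a transcription factor of the dorsal cortex, had 0.65, -2.72 and -2.65, so array 1 stood apart from arrays 2 and 3. Emx1 was well above background in Cy5 on 2 arrays alone and was not called (limma adjusted p = 0.103). Striatal neuron markers were brighter in Cy5 for 7 of 10 genes, with list medians of 1.06, 0.27 and 0.68 on the 3 arrays. Their summed intensity was 85852 to 106607 in Cy5 and 41502 to 72569 in Cy3. Thalamic neuron markers were brighter in Cy5 for 1 and in Cy3 for 3 of 7 genes, with list medians of -0.30, -0.23 and -0.08, and a summed intensity of 29137 to 33259 in Cy5 and 41193 to 53563 in Cy3. Of 12 interneuron markers 3 were brighter in Cy5 and 4 in Cy3. In microglia 3 of 7 markers and in erythroid cells 2 of 5 were brighter in Cy5, in astrocytes 2 of 8 were brighter in Cy3, in the oligodendrocyte lineage 0 of 8 were called in limma (1 in Cy5 at an unadjusted p under 0.05) and in cerebellar granule cells 1 of 6 was brighter in Cy5. All 10 striatal and all 7 thalamic markers passed the filter on dim probes. The part of these cell types in the subunit results was not tested.

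Of the 32 tested subunit genes, 11 (34.4%) were called, against 17.1% of all genes tested. The subunits were chosen with earlier results of these data known, so this share is no test of the set. Brighter in Cy5 were 4 of the 32 (7.95% of all genes), namely Gabrd, Grin2c, Grm4 and Grm2. Brighter in Cy3 were 7 (9.19% of all genes), namely Gria2, Gabra2, Grm5, Gria1, Gabrg1, Gria3 and Gabrb2. The median log2 ratio was -0.05 over the 32 subunit genes and -0.01 over all genes. The same sign on all 3 arrays was found in 62.5% of the 32 and in 59.5% of all genes, a share near that of the array. The differences were modest in size: the largest was Gabrd, 1.72-fold brighter in Cy5, and the largest towards Cy3 was Gria2, 1.61-fold. With the scanner software's processed signals, Grin2c and Gabrd were level, at log2 ratios of 0.825 and 0.822. Without array 1, Gabrd, Grin2c and Grm4 were still called in Cy5 and Gria2, Gabra2, Grm5 and Gria1 in Cy3, while Gria4 was added and Grm2, Gria3, Gabrg1 and Gabrb2 were not called. Without array 3 the counts were 3 in Cy5 and 4 in Cy3. The split also depended on scaling: with arrays centred on their median in place of loess, 6 subunit genes were called brighter in Cy5 and 1, Gria2, in Cy3, while the median of all genes moved to 0.09.

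**Figure D1:**
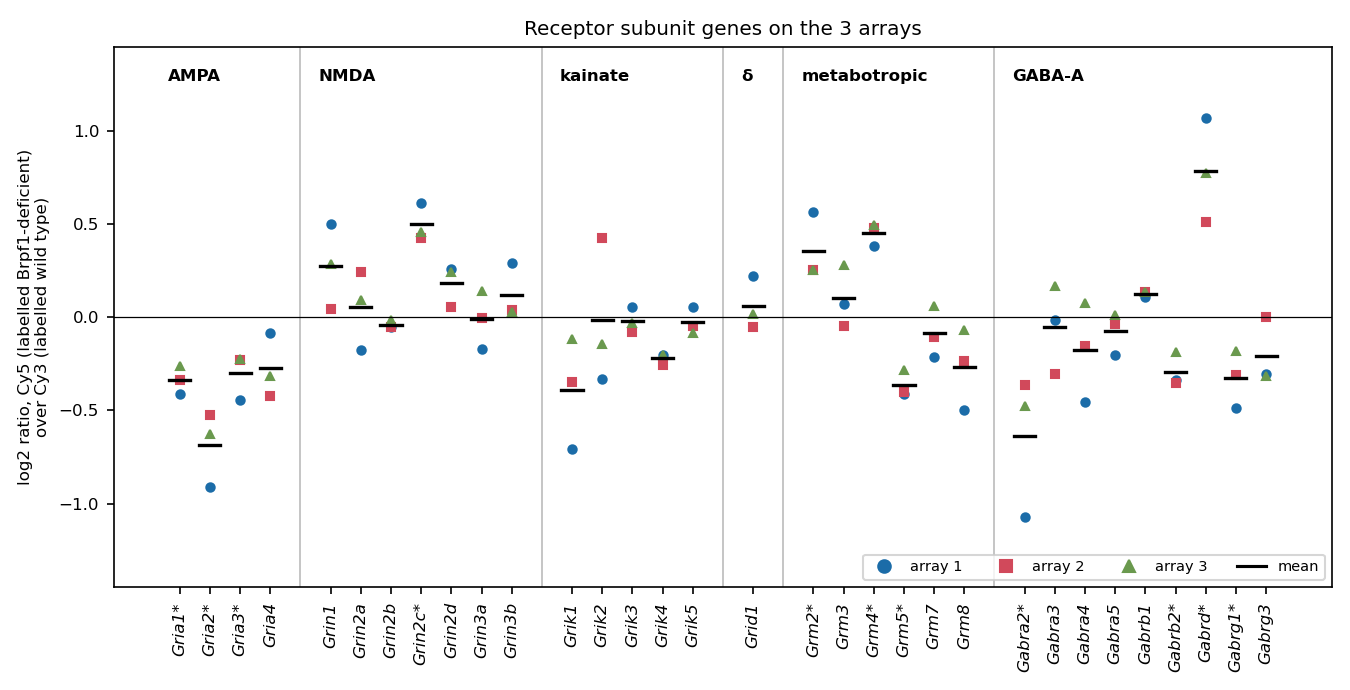
Log2 ratio of Cy5 (labelled Brpf1-deficient) over Cy3 (labelled wild type) of the 32 tested subunit genes, with a point for each array and a bar for the mean; an asterisk marks genes with an adjusted p under 0.05. All 4 AMPA subunits lie below 0 on every array, while Gabrd, at 1.07, 0.51 and 0.77, lies highest.

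Promoter sequence is shown for the 5 called genes that have a single start in the RefSeq promoter table (build GRCm38.p6), to set the upstream sequence of genes brighter in Cy3 beside that of genes brighter in Cy5. The table holds 24 of the 34 genes. Each line gives the 250 bases upstream of the start, 5′ to 3′ on the strand of the gene, and capitals mark CpG dinucleotides, the sites of DNA methylation that lie densely in CpG island promoters. Gria2 (chr3:80802836-80803085), Gabra2 (chr5:71095850-71096099) and Gabrg1 (chr5:70842618-70842867) were brighter in Cy3. Grin2c (chr11:115267244-115267493) and Grm2 (chr9:106656110-106656359) were brighter in Cy5. All 5 genes lie on the minus strand.
Gria2: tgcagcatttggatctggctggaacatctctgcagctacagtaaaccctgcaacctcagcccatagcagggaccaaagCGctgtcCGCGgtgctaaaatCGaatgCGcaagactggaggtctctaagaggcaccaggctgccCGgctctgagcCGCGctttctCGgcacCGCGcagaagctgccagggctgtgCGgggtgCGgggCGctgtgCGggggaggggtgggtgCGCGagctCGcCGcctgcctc
Gabra2: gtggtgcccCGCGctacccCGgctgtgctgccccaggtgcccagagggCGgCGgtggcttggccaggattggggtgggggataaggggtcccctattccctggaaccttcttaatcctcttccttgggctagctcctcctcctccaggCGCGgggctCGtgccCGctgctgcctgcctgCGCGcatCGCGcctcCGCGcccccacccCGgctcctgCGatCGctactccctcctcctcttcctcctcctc
Gabrg1: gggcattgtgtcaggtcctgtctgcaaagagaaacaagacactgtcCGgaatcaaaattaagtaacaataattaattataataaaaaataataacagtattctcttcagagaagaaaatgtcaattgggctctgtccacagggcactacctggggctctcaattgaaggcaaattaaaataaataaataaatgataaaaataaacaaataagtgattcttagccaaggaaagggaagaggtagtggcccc
Grin2c: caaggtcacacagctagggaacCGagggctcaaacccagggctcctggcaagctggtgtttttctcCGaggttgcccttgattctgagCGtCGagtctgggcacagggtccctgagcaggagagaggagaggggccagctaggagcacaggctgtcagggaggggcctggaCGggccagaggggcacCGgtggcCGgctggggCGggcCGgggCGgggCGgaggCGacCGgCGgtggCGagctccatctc
Grm2: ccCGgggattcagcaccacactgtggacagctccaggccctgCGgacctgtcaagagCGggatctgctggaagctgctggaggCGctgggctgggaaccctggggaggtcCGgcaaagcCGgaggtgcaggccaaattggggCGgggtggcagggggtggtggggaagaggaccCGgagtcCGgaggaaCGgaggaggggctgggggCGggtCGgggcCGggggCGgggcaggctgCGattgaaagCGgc
Gria2 holds 19 CpG in this window, Gabra2 18, Grm2 16 and Grin2c 15, against a median of 6 and quartiles of 2 and 16 over 32841 promoters of this length. Gabrg1 stands apart with 1 CpG and 35.6% GC, beside a median of 52.4% GC over all promoters. The motif GGGCGG, searched on both strands, is in the windows of Gabra2, Grin2c and Grm2 and in 32.7% of all promoters. The motif CCAAT, on both strands, is in those of Gabra2, Gabrg1 and Grm2 and in 33.9% of all. None of the 5 holds TATAAA on either strand, which 12.4% of all promoters do. CpG-rich windows are thus found on both sides of the comparison.

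AMPA receptor subunits, which carry most fast excitatory transmission, were dimmer in Cy5. Of the 4 genes, 3 were called brighter in Cy3, against 9.19% of all genes tested. The fourth had a ratio below 0 on every array. With the scanner software's processed signals, or with median centring in place of loess, Gria2 was the only AMPA gene called. The family medians were -0.43, -0.38 and -0.29 on the 3 arrays, with -0.32 over the gene means. The summed normalised intensity of the 4 genes was 21869 to 24647 in Cy5 and 27602 to 32630 in Cy3. The medians of the thalamic, interneuron and astrocyte marker lists also lay below 0 on each of the 3 arrays. The part of these cell types in the AMPA result was not tested.

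Gria2 encodes the subunit whose edited form makes AMPA receptors impermeable to calcium. Its normalised intensity on arrays 1, 2 and 3 was 2563, 2923 and 3081 in Cy5, against 4824, 4199 and 4753 in Cy3. The channels did not overlap, and the Cy5 value was lower on each array. The log2 ratios were -0.91, -0.52 and -0.63, and the limma adjusted p was 0.00763 with a 95% interval of -0.90 to -0.47. A dimmer probe of the gene gave -0.47, -0.45 and -0.31 (mean -0.41) and was called in the fit over probes, where 16.8% of all probes were called.

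Gria1, the subunit that is added to synapses in potentiation, had 4879, 4518 and 4747 in Cy5, against 6489, 5696 and 5692 in Cy3. All Cy5 values lay below all Cy3 values. The log2 ratios of -0.41, -0.33 and -0.26 averaged -0.34 ± 0.07 (limma adjusted p = 0.0245). With median centring in place of loess the mean was -0.24 and not called (limma adjusted p = 0.0954).

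Gria3, a partner of GluA2 in cortical AMPA receptors, had 10157, 9752 and 9946 in Cy5, against 13843, 11435 and 11606 in Cy3. The groups did not overlap, but the log2 ratios of -0.45, -0.23 and -0.22 left an adjusted p of 0.0407 in limma, close to the threshold. A second Gria3 probe had -0.30, 0.10 and -0.02 and was not called, so the call rests on 1 of 2 probes. With median centring in place of loess the mean of the brighter probe was -0.14 and not called (limma adjusted p = 0.352).

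Gria4, a subunit of early development and of interneurons, had log2 ratios of -0.08, -0.42 and -0.31 and was not called (limma adjusted p = 0.0646, 95% interval -0.47 to -0.07). Its second probe had -0.73, -0.04 and -0.14, so the probes put their largest difference on different arrays. By the brighter Gria2 probe, Gria1 minus Gria2 was 0.50, 0.19 and 0.36, Gria3 minus Gria2 0.47, 0.29 and 0.40, and Gria4 minus Gria2 0.83, 0.10 and 0.31. These differences were not tested, and they depend on the probe: by the dimmer Gria2 probe, at -0.47, -0.45 and -0.31, the gaps to Gria1 are smaller and Gria4 is level with Gria2 on array 3.

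**Figure D2:**
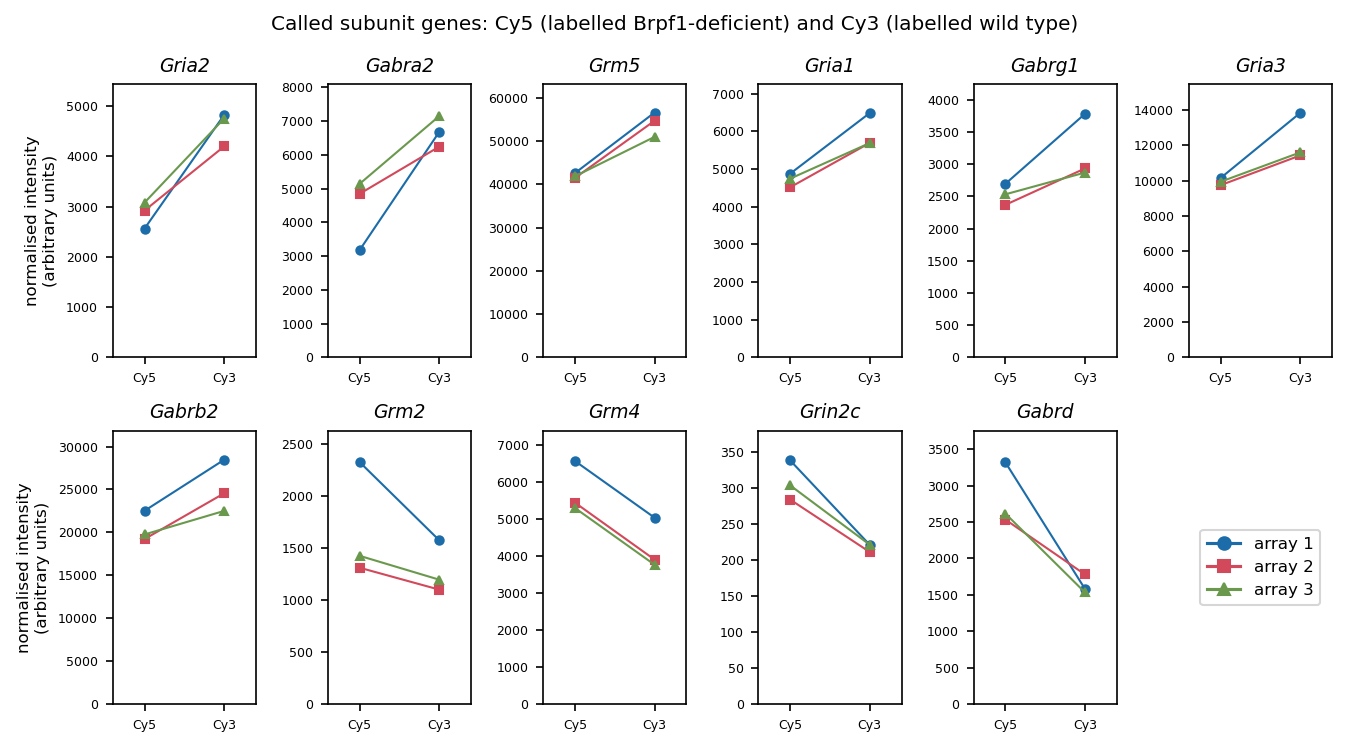
Normalised intensity (arbitrary units, axis from 0) of the 11 called subunit genes in Cy5 (labelled Brpf1-deficient) and Cy3 (labelled wild type), with a line joining the channels of each array. Every line runs the same way within a gene; Gabra2 on array 1, at 3183 in Cy5 and 6681 in Cy3, has the largest ratio among the genes brighter in Cy3.

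NMDA receptor subunits form the voltage-dependent, calcium-permeable channels of synaptic plasticity. Of the 7 genes, 1 was called brighter in Cy5 and 0 in Cy3 (3 and 0 at an unadjusted p under 0.05 in limma). This share, 14.3%, is near the 17.1% of all genes. The family medians were 0.26, 0.04 and 0.14 on the 3 arrays and 0.12 over the gene means. The last is the value of Grin3b, and 0.26 that of Grin2d, both from dim probes. The summed normalised intensity of the 7 genes was nearly equal, at 24892, 20531 and 22291 in Cy5 and 24839, 20589 and 20718 in Cy3. Grin2c, a subunit that in rodents rises after birth and is known from cerebellum and thalamus, had an intensity of 338, 284 and 303 in Cy5, against 221, 211 and 221 in Cy3. The channels did not overlap, though the probe was dim, in the lowest of 5 equal bins of intensity. Its log2 ratios were 0.61, 0.43 and 0.46 (mean 0.50 ± 0.10, limma adjusted p = 0.0101). With the scanner software's processed signals the mean was 0.82, so the size of this difference depends on the processing.

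The obligatory subunit Grin1 had 0.50, 0.04 and 0.29, positive on each array but not called (mean 0.28 ± 0.23, limma adjusted p = 0.0856). Its second, dimmer probe had 0.11, -0.03 and 0.20. Grin2b, the main GluN2 subunit of the newborn forebrain, was nearly level, at -0.05, -0.05 and -0.02. The 95% interval of its mean ran from -0.20 to 0.12. Grin2a, which joins synapses as the cortex matures, varied more, at -0.18, 0.24 and 0.10. The difference Grin2b minus Grin2a was 0.12, -0.29 and -0.11 and changed sign between arrays.

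The remaining NMDA subunits were not called. Grin2d, known from interneurons and early development, averaged 0.19 ± 0.12, and Grin3b, known mainly from motor neurons, 0.12 ± 0.15, both from dim probes. Grin3a, a subunit of juvenile synapses, averaged -0.01 ± 0.16. Its second probe spread over -0.84, 0.34 and -0.20, the widest range among the subunit probes, and gave no direction.

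Kainate receptor subunits gave 0 calls of 5 in limma's test over genes, against 17.1% of all genes tested. At an unadjusted p under 0.05 in limma there were 0 in Cy5 and 2 in Cy3. The family medians were -0.20, -0.08 and -0.11 on the 3 arrays and -0.03 over the gene means (-0.20 without array 2). All 5 means lay below 0, 3 of them within 0.03 of it. Grik1, the GluK1 subunit found in interneurons, had -0.71, -0.35 and -0.11 and missed the threshold (limma adjusted p = 0.0545). Its second probe had -0.32, -0.03 and -0.19, so both were below 0 on every array. Grik4, a high-affinity subunit, had -0.20, -0.26 and -0.20, the closest agreement between arrays in the family, and an adjusted p of 0.0621 in limma.

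Grik2, the most widely made kainate subunit, had 2 probes that disagreed. The brighter, which stands for the gene, had -0.33, 0.42 and -0.14 and no direction. The dimmer probe had -0.69, -0.11 and -0.39 and was called brighter in Cy3 in the fit over probes (limma adjusted p = 0.0482), although in Cy5 it exceeded background clearly on 2 arrays alone. Grik3 and Grik5 averaged -0.02 ± 0.07 and -0.03 ± 0.07. Grid1, a delta subunit that acts as a synaptic organiser, averaged 0.06 ± 0.14 and was not called.

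Metabotropic glutamate receptors went in both directions: 2 of 6 were called brighter in Cy5 and 1 in Cy3, against 7.95% and 9.19% of all genes tested. Grm4, a group III receptor that damps transmitter release, had an intensity of 6571, 5444 and 5300 in Cy5, against 5039, 3905 and 3766 in Cy3. The channels did not overlap. Its log2 ratios of 0.38, 0.48 and 0.49 had a small spread (mean 0.45 ± 0.06, limma adjusted p = 0.0114). A dim second probe of Grm4 had 0.11, 0.17 and 0.18, of the same sign and not called.

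Grm2, a group II receptor, had 2321, 1308 and 1422 in Cy5, against 1571, 1097 and 1193 in Cy3. Here the channels overlap between arrays, because both are brighter on array 1, but Cy5 was the brighter within each. The log2 ratios were 0.56, 0.25 and 0.25 (mean 0.36 ± 0.18, limma adjusted p = 0.035). Grm3, the other group II receptor, had 0.07, -0.05 and 0.28 and was not called.

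Grm5, a group I receptor that is abundant in the early postnatal cortex, had 42627, 41505 and 41889 in Cy5, against 56623, 54731 and 50998 in Cy3. The channels were well apart, and the log2 ratios of -0.41, -0.40 and -0.28 gave a mean of -0.36 ± 0.07 (limma adjusted p = 0.0194). The other probes of the gene did not follow it. One had -0.63, 0.19 and -0.02 and the other 0.45, -0.10 and 0.39, with means of -0.16 and 0.25, and neither was called. The called probe lies in the brightest of 5 equal intensity bins, and its mean turned to 0.044 when arrays were centred on their median in place of loess (limma adjusted p = 0.734). The direction of Grm5 is therefore uncertain. Of the group III receptors not called, Grm7 averaged -0.09 ± 0.14 and Grm8 -0.27 ± 0.22.

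GABA-A receptor subunits were split, with 1 of 9 called brighter in Cy5 and 3 in Cy3, against 7.95% and 9.19% of all genes tested. The family medians were -0.31, -0.16 and 0.01 on the 3 arrays and -0.18 over the gene means, so array 3 showed no lean of the family. Without array 1 the median over the 9 genes was -0.07. Gabrd encodes the delta subunit of extrasynaptic receptors that carry tonic inhibition, and was the subunit gene with the largest difference as normalised here. Its intensity was 3321, 2534 and 2617 in Cy5, against 1581, 1780 and 1533 in Cy3. All Cy5 values lay above all Cy3 values. The log2 ratios were 1.07, 0.51 and 0.77 (mean 0.78 ± 0.28, limma adjusted p = 0.00869, 95% interval 0.53 to 1.04). Without array 1 the called difference was 0.64. The medians of striatal markers ranked the 3 arrays in the same order. So did those of interneuron markers, NMDA subunits and scaffold genes of inhibitory synapses, and a link to any of them was not tested.

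Gabra2, an alpha subunit of synaptic receptors made early in the forebrain, had 3183, 4847 and 5143 in Cy5, against 6681, 6243 and 7149 in Cy3. The channels did not overlap, and array 1 gave the largest difference. The log2 ratios were -1.07, -0.37 and -0.48 (mean -0.64 ± 0.38, limma adjusted p = 0.025). Without array 1 the mean was -0.42, still called. This probe was named through the authors' deposited table. The probe named through RefSeq had -0.86, -0.25 and -0.42, with a mean of -0.51, and was also called.

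Gabrb2, a beta subunit of the common synaptic receptor, had 22511, 19217 and 19752 in Cy5, against 28459, 24549 and 22497 in Cy3. The highest Cy5 value, on array 1, lay just above the lowest Cy3 value, on array 3, but Cy5 was the dimmer on every array. Its log2 ratios were -0.34, -0.35 and -0.19 (limma adjusted p = 0.0364). With median centring in place of loess the mean was -0.015, so the size of this difference depends on the normalisation.

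Gabrg1, a gamma subunit that lies beside Gabra2 in the genome, was measured by a probe with 10 spots per array. It had 2696, 2370 and 2533 in Cy5, against 3783, 2935 and 2872 in Cy3, with no overlap. Its log2 ratios were -0.49, -0.31 and -0.18 (mean -0.33 ± 0.15, limma adjusted p = 0.038). A second probe had -0.41, -0.02 and 0.00 and was not called.

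The other GABA-A subunits were not called. The alpha subunits Gabra3 and Gabra5, both made strongly around birth, averaged -0.05 ± 0.24 and -0.08 ± 0.11, and Gabra4, a partner of the delta subunit, -0.18 ± 0.27. Within arrays, Gabra5 minus Gabra2 was 0.87, 0.33 and 0.49, and Gabra3 minus Gabra2 1.05, 0.06 and 0.64, by the brighter Gabra2 probe. By the RefSeq-named probe, at -0.25 on array 2, Gabra2 was not below Gabra3 there, and the differences were not tested. The beta subunit Gabrb1 was slightly above 0 on each array, at 0.11, 0.13 and 0.14 (limma adjusted p = 0.209). Gabrg3 gave no direction, since its brightest probe averaged -0.21 and its other probes 0.26 and 0.19.

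In the mouse genome many of these genes form clusters. On chromosome 5 the RefSeq gene table places Gabrg1, Gabra2, Gabra4 and Gabrb1 in this order, with 1 other protein-coding gene, between Gabra2 and Gabra4. Their mean log2 ratios along the cluster were -0.33, -0.64, -0.18 and 0.13. The genes of this cluster did not share a direction: the first pair was called brighter in Cy3, and Gabra4 and Gabrb1 were not called. On chromosome 7, Gabrg3 and its neighbour Gabra5 were both not called, and on chromosome 11 Gabrb2 was brighter in Cy3 beside the unmeasured Gabra6. Gabrd lies apart from these on chromosome 4 and Gabra3 on X.

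**Figure D3:**
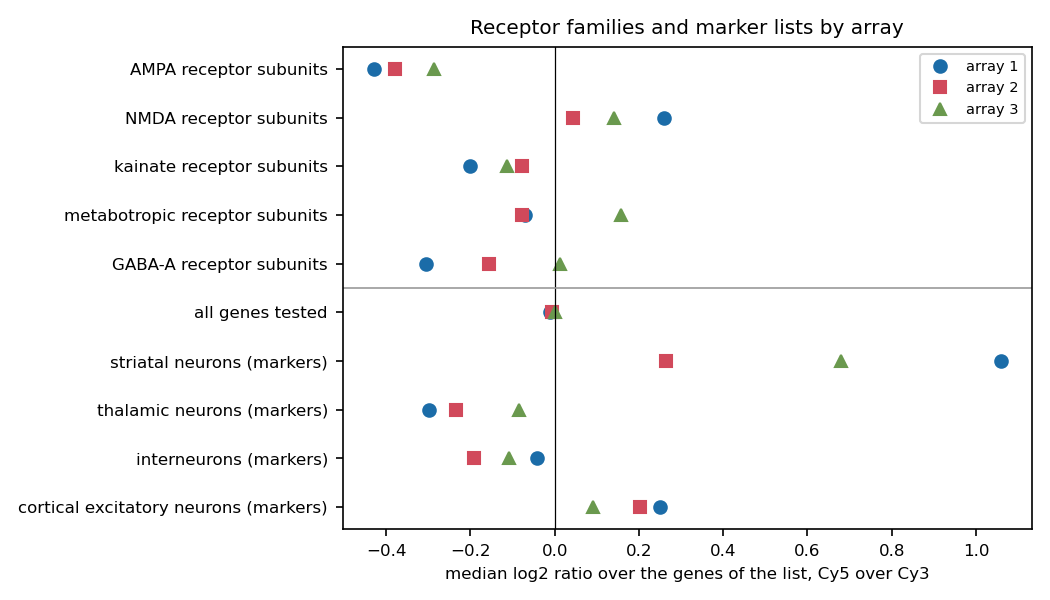
Median log2 ratio, Cy5 over Cy3, of each receptor family on arrays 1, 2 and 3, above the medians of all genes tested and of 4 marker lists. AMPA medians lie below 0 and NMDA medians above 0 on every array, all genes lie near 0, and striatal markers spread widest, at 1.06, 0.27 and 0.68. The NMDA medians rest partly on dim probes.

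More than 1 probe was present for 16 of the 34 genes. Where more than 1 RefSeq-named probe passed the filter, in 12 subunit genes, the probe means lay a median of 0.20 apart on the log2 scale, beside 0.16 for 4252 other genes. Calls backed by a second called probe were those of Gria2 and Gabra2. For Gria3, Grm4 and Gabrg1 the second probe had the same sign and was not called, and for Grm5 the others fell on both sides of 0. Gria1, Grin2c, Grm2, Gabrb2 and Gabrd had 1 probe each.

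**Figure D4:**
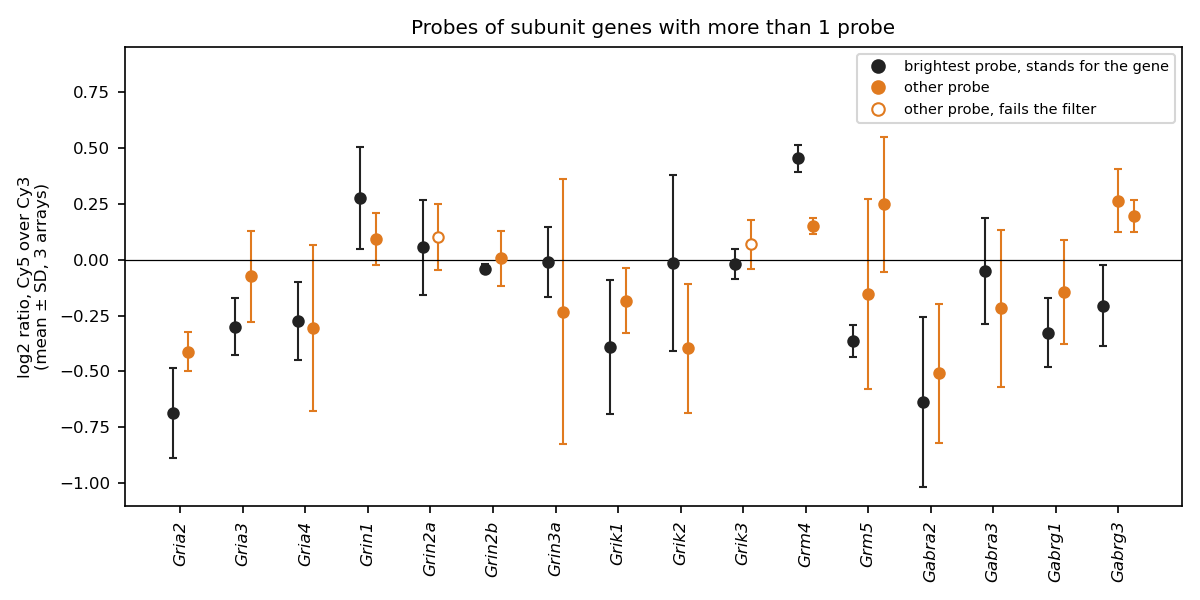
Mean log2 ratio, Cy5 over Cy3, with SD over 3 arrays, of every probe of the 16 subunit genes with more than 1 probe. Black points stand for the gene in the tests, orange points are its other probes, and open points failed the filter on dim probes; the probes of Gria2 and Gabra2 lie together below 0, while those of Grm5 and Gabrg3 lie on both sides of it.

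Genes whose proteins work with these receptors were listed by role. Of 13 auxiliary subunits, 2 were brighter in Cy5 and 1 in Cy3. Neto2, which slows kainate receptors, had -0.50 ± 0.12 (limma adjusted p = 0.0111), while the AMPA receptor partners Cacng5 and Cacng3 had 0.29 ± 0.06 and 0.27 ± 0.11. None of 20 scaffold genes of glutamate synapses and none of 8 of inhibitory synapses was called in limma, against 17.1% of all genes. At an unadjusted p under 0.05, the first list had 6 genes brighter in Cy5 and 3 in Cy3. The second had 1 in each direction.

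Genes of glutamate handling were called in 5 of 8 cases, 2 brighter in Cy5 and 3 in Cy3, against 17.1% of all genes tested in either direction. The vesicular transporters differed in direction. Slc17a6, known from thalamic and other subcortical neurons, had -0.96, -0.82 and -0.72 (limma adjusted p = 0.0019). Slc17a7, the transporter of cortical excitatory neurons, had 0.35, 0.21 and 0.51, and Slc17a8, made by few neurons, averaged 0.38. The astrocyte transporter Slc1a3 averaged -0.38. Slc17a7 and Slc17a6 were thus called in opposite directions on the same arrays. Which cells made them in this tissue was not tested.

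Of 8 genes of GABA synthesis, transport and chloride balance, 1 was called, against 17.1% of all genes tested. This was the vesicular GABA transporter Slc32a1, at 0.52, 0.11 and 0.37 (limma adjusted p = 0.0489). The enzymes that make GABA, Gad1 and Gad2, averaged -0.19 ± 0.11 and 0.01 ± 0.19. Of 7 measured genes for GABA-B, GABA-rho and glycine receptors, Glra2, the glycine receptor subunit of immature neurons, was called at -0.68, -0.51 and -0.63 (limma adjusted p = 0.00532), and Glra1, Glra3 and Glra4 failed the filter.

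**Figure D5:**
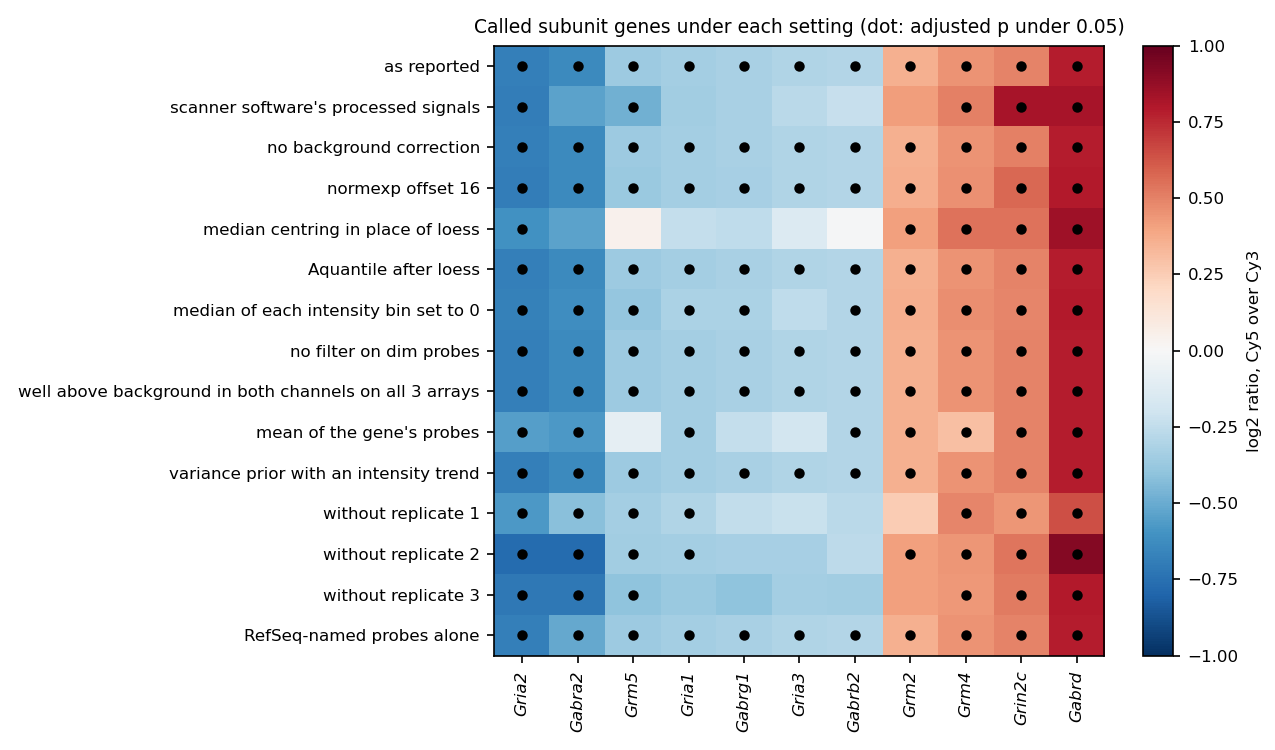
Log2 ratio, Cy5 over Cy3, of the 11 called subunit genes as reported and under 14 other settings, coloured from blue (brighter in Cy3) to red (brighter in Cy5), with a dot where the adjusted p was under 0.05. The columns of Gria2, Grm4, Grin2c and Gabrd carry a dot in every line, and those of Gria3, Gabrg1 and Gabrb2 lose it in several.

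Across the 14 other settings, Gria2, Grin2c, Grm4 and Gabrd were called each time. Gria2 stayed between -0.77 and -0.55, Gabrd between 0.64 and 0.92, Grin2c between 0.44 and 0.82 and Grm4 between 0.30 and 0.54. Grm5 and Gabra2 were called under 12 of the 14, Gria1 and Grm2 under 11, Gabrb2 under 9, Gabrg1 under 8 and Gria3 under 7. Leaving out any 1 of the 3 arrays ended the calls of Gria3, Gabrg1 and Gabrb2. The call of Gria1 was lost without array 3 and that of Grm2 without array 1 or array 3. Array 1 carried the largest ratio in size for 9 of the 11 called subunit genes (81.8%), beside 67.0% of all called genes.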

How the data were processed

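Per the file headers, spots were read with Agilent Feature Extraction 10.7.3.1 and a grid of build mm9. The deposited intensity of a spot, and that of the background around it, is the median over pixels, without normalisation. The deposited processed intensity is background-subtracted and dye-normalised by the scanner software, and the deposited log10 ratio of processed Cy5 over Cy3 was not used in a result. The authors' deposited table gives log2 fold changes, average log2 values, scores (t and log odds) and p-values, made with limma per the submitters' processing notes. Its direction is not given in the sources used here, and its largest p-value is 0.458.

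With limma 3.58.1 in R 4.3.3, median intensities were corrected with normexp (offset 50), normalised by loess within arrays with control spots at weight 0, and averaged per probe. Means of spots had been planned, but the scanner files used here give medians. A probe was kept if 1 or both of its channels exceeded background by the scanner's flag on 2 or more of the 3 arrays, as for 32983 of 55681 probes, and a gene was its brightest probe. An intercept-only fit with moderated variances tested each log2 ratio against 0 (two-sided), and p-values were adjusted over all genes by Benjamini-Hochberg. Probes were named through RefSeq (27656, assembly GRCm38.p6) or the authors' deposited table (4082). The other 23943 kept their systematic name and count among all genes. Names from a table limited by p-value are not independent of the outcome. The 3 arrays share 1 slide, so no slide effect could be tested. The fit was tested on simulated data.

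The subunits, 6 pathway lists and 9 marker lists were chosen with earlier results of these data known. Described with array values are subunits called in the fit over genes or with a probe called in that over probes. Of each pathway list at most 4 called genes fall under the rule; Slc17a8, the fifth, and genes not called were added after their values were seen. A gene that the rule names is not reported here.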

Additional observations from a re-analysis of the deposited data

How the results depend on the processing

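The fit as reported is already paired, because each array holds a pair as its ratio. With 1 group of arrays no further pairing could be added. As reported, 4 subunit genes were called brighter in Cy5 and 7 in Cy3. With processed signals the Cy3 count was 2 and the NMDA median 0.27. With median centring in place of loess the Cy3 count was 1, Grm5 turned to 0.044, and the AMPA and GABA-A medians were -0.20 and -0.015. Without 1 array the counts were 3 to 5 in Cy5 and 4 to 5 in Cy3, where the count was lowest without array 3. The kainate median was -0.21 with the mean of the probes, and -0.20 to -0.013 without 1 array. Under the other settings run, each family's median moved by less than its SD between arrays. The cause of these shifts was not tested.

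Over all genes, 3994 were called, but 1106 with processed signals, 5370 with median centring and 1897 without array 3. Brighter in Cy5 were 46.4% of calls, 83.3% with median centring, which moved the median of all genes to 0.09, and 52.0% with processed signals. Of 21 subunit genes not called, Gria4, Grin1, Grik1 and Gabrb1 became called under 3, 2, 3 and 1 settings, and 11 others changed sign under at least 1 setting without being called. Naming probes through RefSeq alone, chosen after seeing the data, kept the same 11 calls. Of the 15562 genes tested in that way, 18.0% were called. With 3 arrays of 1 dye orientation, small differences and dye effects cannot be separated.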
